A study of Mus musculus with 16 samples.

Results

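Enzymes that cut the extracellular matrix and the inhibitors that hold them in check were compared between the liver and kidney of LD-conditioned and ADV-conditioned mice. Rows whose symbol was Mmp with a number, Timp1, Timp2, Timp3 or Timp4, or Adamts with a number were taken, which gave 46 of the 32989 genes in the tables, namely 23 Mmp, 4 Timp and 19 Adamts genes. No symbol was repeated. Male C57BL/6J mice had been kept for 85 weeks in a normal light cycle with light from 8:00 to 20:00 (LD) or in a cycle that was advanced by 8 h every 4 days (ADV), and were 97 weeks old. Whole liver and whole kidney were taken from the same 8 mice, 4 in each condition, and 1 poly(A) RNA-seq library was made from each organ. The LD mice are named L63, L65, L86 and L104, and the ADV mice A75, A91, A94 and A115. All values are levels in FPKM, fragments per kilobase of exon scaled to the total of the library, so that genes of different length can be compared.

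Matrix metalloproteinases (MMPs) are zinc enzymes that are made as inactive precursors, and they degrade collagens, laminins and proteoglycans as well as growth factors and their receptors. ADAMTS enzymes are secreted relatives, some of which cleave the proteoglycans aggrecan and versican, others the ends of newly made collagens, and 1 the clotting protein von Willebrand factor. Tissue inhibitors of metalloproteinases (TIMPs) bind the active site of these enzymes. TIMP3 stays attached to the matrix and also inhibits ADAMTS and ADAM enzymes, TIMP2 takes part in the activation of MMP2 on the membrane enzyme MMP14, and TIMP1 is a soluble inhibitor whose gene responds to inflammatory signals. In liver and kidney these genes are known from fibrosis and repair, where stellate cells, fibroblasts, macrophages and injured epithelium make many of them.

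The libraries held between about 22700000 and 26300000 fragments in the liver and between about 17100000 and 19700000 in the kidney. The tissue labels were checked with marker genes, and the summed FPKM of 5 proximal tubule markers reached at most 0.112 in any liver against at least 18337 in every kidney. The liver of A94 stood apart from the other livers, with a mean Pearson correlation across genes of 0.941 against 0.977 or above, and its summed markers of B and plasma cells were 691 FPKM against at most 10.2 in the LD livers. The kidney of A115 stood apart as well, with a mean correlation of 0.858 against 0.932 or above and 33.8% of its gene fragments on mitochondrial genes against at most 18.0%. This share was 10.7%, 13.1% and 9.43% in the kidneys of A75, A91 and A94, below the LD kidneys with 15.7% to 18.0%. In whole organs, a change in the number of cells of a type and a change in RNA per cell cannot be told apart. The libraries were sequenced by a pair of providers, and which library came from which is not given. This difference therefore cannot be told apart from the condition or from the organ.

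A total of 25 members reached the minimum for testing in the liver, a mean FPKM times exon length in kb of 0.5, and 29 did so in the kidney. In both organs 22 members were tested, 32 in at least 1 organ and 14 in neither. Mmp1a, Mmp1b, Mmp21 and Adamts18 were at 0 in every library, and Adamts19 was at 0 in every kidney. Only 3 members had a mean above 10 FPKM in the liver (Mmp19, Timp3 and Mmp14), and only 3 in the kidney (Timp3, Timp2 and Adamts1). A mean above 1 FPKM was found for 8 members in the liver and for 16 in the kidney.

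The kidney was dominated by a single inhibitor. Timp3 (chr10:86300412-86349505 on GRCm38/mm10, plus strand) measured 537 ± 49.3 FPKM in LD kidneys and 11.9 ± 0.741 FPKM in LD livers (SD, n = 4), so that it made up between 86.5% and 92.8% of the summed FPKM of all 46 genes in the LD kidneys and between 20.1% and 22.5% in the LD livers. It lies within Syn3 on the opposite strand, and exons of both genes share 1733 bases, 21.3% of the exon bases of Timp3. Whether the authors counted by strand is not stated. In the LD livers the MMPs held between 61.8% and 64.1% of the summed FPKM, and Mmp19 alone between 27.7% and 33.1%.

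**Figure D1:**
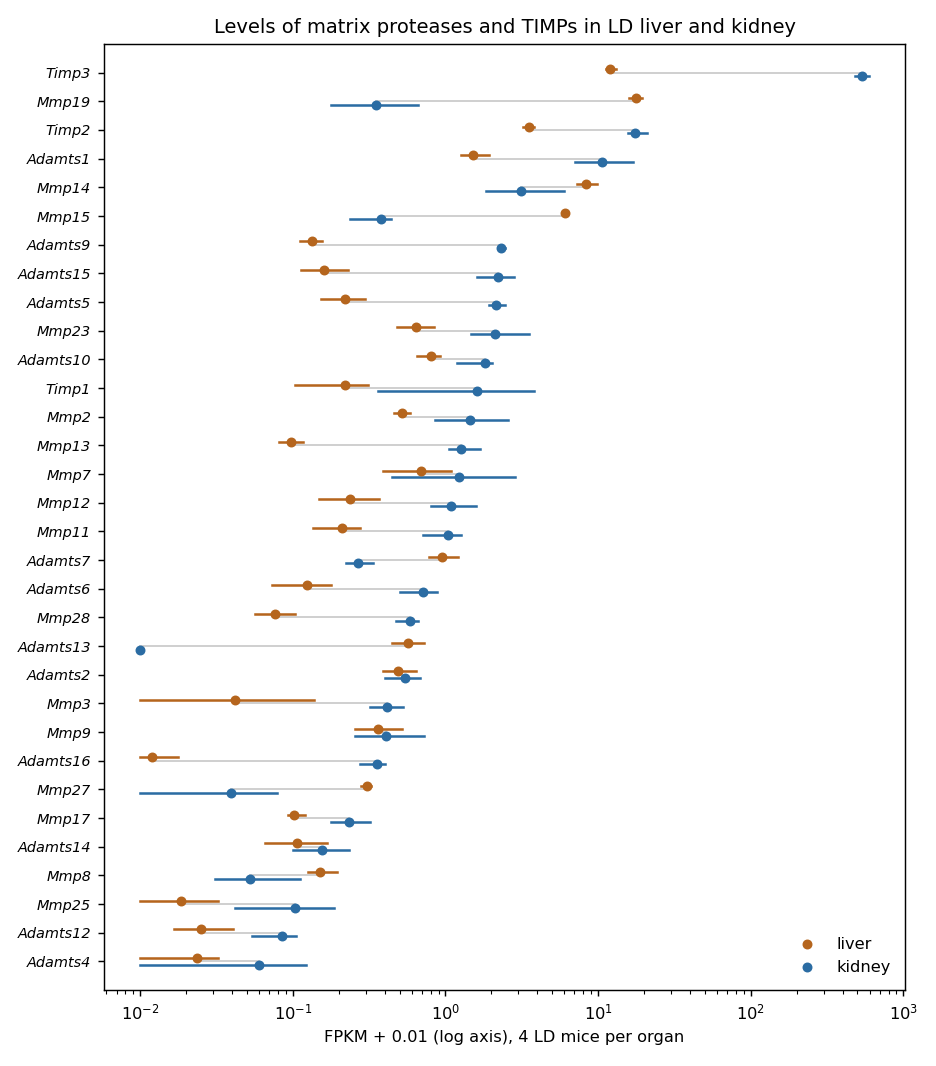
Mean FPKM (points) and range (lines) over the 4 LD mice in liver and kidney for the 32 members tested in at least 1 organ, on a log axis after adding 0.01. Timp3 in the kidney stands far to the right of all others, and Mmp19, Mmp14 and Mmp15 are the members of high level that are higher in the liver.

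The kidney was compared with the liver under each condition in 1 fit over all 16 libraries (limma on log2(FPKM + 0.1), Benjamini-Hochberg adjustment over 14968 genes). Under LD, 14 of the 32 members were higher in the kidney at an adjusted p under 0.05, or 43.8%, where 55.5% of all genes tested were, and 6 were lower, or 18.8%, where 11.1% of all genes were. Under ADV, 14 were higher (51.7% of all genes) and 5 were lower (11.2% of all genes). This fit did not pair the organs of a mouse. With the mouse as replicate block, 18 were higher under LD (56.2%, where 56.3% of all genes were) and 19 under ADV (59.4%, where 52.7% were). With it, 6 and 7 were lower (11.4% and 11.5% of all genes). The median log2 difference of the members was 1.14 under LD and 1.08 under ADV, against 0.80 and 0.69 over all genes. Other scalings moved this background. With quantile normalization the median over all genes was -0.01 under LD, and 8 members were higher and 11 lower under LD (27.2% and 24.8% of all genes), and 7 and 9 under ADV (25.9% and 23.2% of all genes). The median of the members was then -0.09 under LD and 0.05 under ADV, so that no direction is read from the medians. The genes named next kept their direction under every scaling.

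Timp3 was 44.5-fold higher in the kidney under LD (log2 difference 5.48, SE 0.21, limma adjusted p = 4.60e-12) and 41.6-fold under ADV (log2 5.38), and it was higher in the kidney of 8 of 8 mice. Proteoglycan-cleaving ADAMTS enzymes followed. Adamts9 was at 2.30 ± 0.126 FPKM in LD kidneys and 0.124 ± 0.0180 in LD livers (SD, n = 4), a log2 difference of 3.42, and Adamts15, Adamts5 and Adamts1 differed by 3.19, 2.87 and 2.67. Mmp13 (collagenase 3) differed by 2.85 under LD. Under ADV the 6 largest differences in this direction belonged to Timp3, Adamts1 (2.83), Adamts9 (2.79), Adamts5 (2.36), Adamts15 (2.32) and Adamts16 (2.31). Of the 7 proteoglycan-cleaving ADAMTS genes, 5 reached the minimum in the kidney and 4 in the liver.

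The liver was the organ of Mmp19, a secreted MMP that acts on proteins of the basement membrane, and of Mmp15, a membrane-type MMP. Mmp19 (chr10:128790955-128800827, plus strand) measured 17.7 ± 1.43 FPKM in LD livers and 0.340 ± 0.217 FPKM in LD kidneys (SD, n = 4), a log2 difference of -5.45 (SE 0.35, limma adjusted p = 2.27e-09). Mmp15 differed by -3.75 under LD and by -3.64 under ADV. Both were lower in the kidney of 8 of 8 mice. Adamts13, which cleaves von Willebrand factor, was at 0.556 FPKM in the LD livers and at 0 in all 4 LD kidneys. Set against 3 fragments summed over the LD kidneys, it was at least 59.4-fold higher in the liver. Mmp27 (log2 -1.66), Mmp14 (-1.55) and Adamts7 (-1.53) completed the 6 genes under LD, and Mmp27 (-2.10) and Adamts7 (-1.04) passed again under ADV. Mmp14 had an adjusted p of 0.015 under LD by limma, which became 0.065, 0.064 and 0.063 without L63, L65 or L104, and under ADV its adjusted p was 0.0746, or 0.0451 with the mouse as replicate block. About 22.3% of the exon bases of Mmp19 are shared with Tmem198b on the opposite strand.

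On chromosome 9, 10 of the MMP genes stand side by side in 427 kb from position 7272514 to 7699585, and 6 of these were tested in at least 1 organ. The 100 bases before the RefSeq start of each of these 6 are printed (GRCm38.p6, all on the plus strand, chr9:7272414-7272513, chr9:7445722-7445821, chr9:7691990-7692089, chr9:7347274-7347373, chr9:7558329-7558428 and chr9:7571296-7571395 in the order given), because the neighbours differ in the motif for the AP-1 factors that is known from promoters of this family. Capitals mark the AP-1 motif TGANTCA and the motif TATAAA, read towards the gene.
Mmp13: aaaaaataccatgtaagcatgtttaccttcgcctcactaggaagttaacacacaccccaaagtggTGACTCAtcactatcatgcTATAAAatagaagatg
Mmp3: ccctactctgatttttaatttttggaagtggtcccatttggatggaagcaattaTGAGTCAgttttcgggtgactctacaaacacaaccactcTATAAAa
Mmp7: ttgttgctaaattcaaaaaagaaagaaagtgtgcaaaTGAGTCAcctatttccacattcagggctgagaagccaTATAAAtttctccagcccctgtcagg
Mmp12: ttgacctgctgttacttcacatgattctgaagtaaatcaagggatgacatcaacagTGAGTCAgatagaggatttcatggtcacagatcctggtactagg
Mmp8: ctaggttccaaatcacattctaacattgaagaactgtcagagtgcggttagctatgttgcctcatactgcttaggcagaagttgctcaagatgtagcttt
Mmp27: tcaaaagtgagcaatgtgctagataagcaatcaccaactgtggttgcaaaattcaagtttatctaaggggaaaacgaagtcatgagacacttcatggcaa

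The AP-1 motif lay 46 to 40 bases before the start of Mmp3, 63 to 57 before that of Mmp7, 44 to 38 before that of Mmp12 and 35 to 29 before that of Mmp13, and these letters were not in the printed stretch of Mmp8 or Mmp27. Over 250 bases before the start, on both strands, 8 of the 32 members with an entry in the RefSeq promoter table held TGANTCA, where 6.75% of 32851 promoters did, and all 8 were genes of this cluster. TATAAA, searched on the strand of the gene, was in 9 of 32 (7.59% of all promoters). The E-box CACGTG, the motif of the clock factors, was in 1 of 32, Adamts17 (6.02% of all promoters), and the D-box TTANGTAA in 0 of 32 (2.06%). A match is a description of the letters, not of a bound site.

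In the liver, no member differed between ADV and LD at an adjusted p under 0.05 by limma, where 0.00779% of 12835 genes did. At an unadjusted p under 0.05, 4 of 25 members were higher in ADV (16%, where 8.65% of all genes were) and 0 were lower (3.13% of all genes). The log2 difference was above 0 in 21 of 25, or 84%, where 65.7% of all genes were. The 4 were Mmp19, Timp1, Mmp7 and Mmp2. Timp1, Mmp8, Mmp17, Adamts12 and Adamts14 reached the minimum in ADV only, so that these 5 of the 25 had to be higher there, and nothing is read from the counts over members. When each mouse was left out, the number higher ranged from 2 without L63 or L65 (7.69%, where 5.54% and 6.17% of all genes were) to 8 without A91 (30.8%, where 13.4% were). Scaling by the median ratio left 4 of 25 members higher and 0 lower, where 6.19% of all genes were higher and 7.29% lower. The values of 3 of the tested members, Mmp19, Mmp2 and Mmp27, were higher in every ADV liver than in every LD liver, or 12% where 6.94% of all genes were, and no member was lower in every ADV liver (1.89% of all genes). The median log2 difference was 0.57 over the 25 members and 0.10 over all genes. It was 0.30 with quantile normalization (all genes -0.03), with 17 of 25 above 0, and 0.35 and 0.20 with a pseudocount of 0.5 or 1 FPKM (all genes 0.08 and 0.07).

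**Figure D2:**
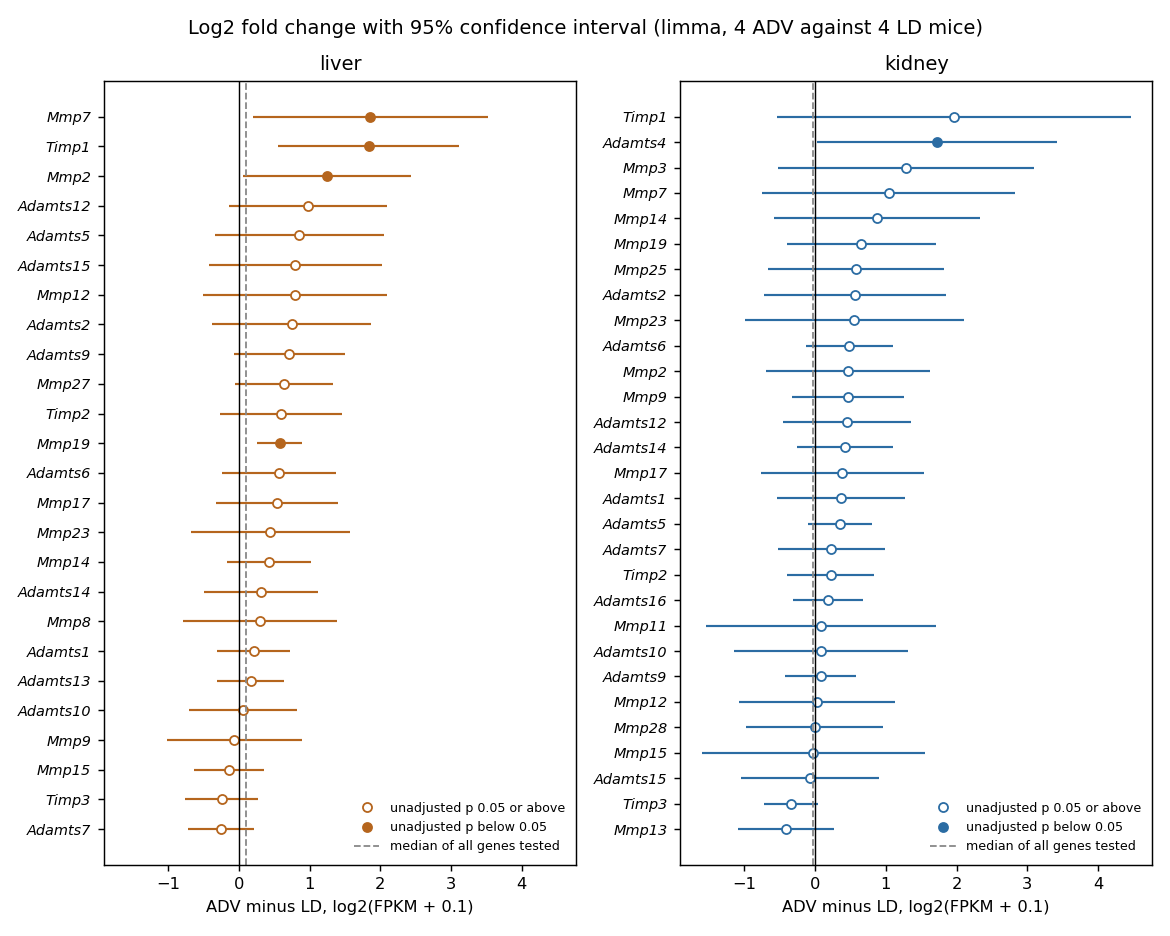
Log2 difference between 4 ADV and 4 LD mice (points) with 95% confidence intervals (lines) for the 25 members tested in the liver (left) and the 29 tested in the kidney (right), filled where the unadjusted limma p was under 0.05. Most points lie to the right of 0, 21 of 25 and 24 of 29, and most intervals cross it.

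Mmp19 was the most abundant member of the liver. It measured 17.3, 18.4, 15.99 and 19.3 FPKM in L63, L65, L86 and L104, and 23.7, 24.5, 23.8 and 35.6 FPKM in A75, A91, A94 and A115. All ADV livers lay above all LD livers, with A115 highest. On the log2 scale the difference was 0.58 (95% CI 0.26 to 0.90, limma unadjusted p = 0.00264, adjusted p = 0.296, exact permutation p = 0.029, the smallest that 4 against 4 mice allow). It ranged from 0.44 without A115 to 0.63 without A75 when each mouse was left out, so that it did not rest on the liver of A94. Over all 20 alternatives, other processing included, it ran from 0.33 to 0.63, with an unadjusted limma p of up to 0.125.

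Timp1 (chrX:20870166-20874737, plus strand, inside an intron of Syn1) was low in all LD livers, with 0.0928, 0.184, 0.259 and 0.301 FPKM in L63, L65, L86 and L104. The ADV livers measured 0.849, 0.270, 3.14 and 1.03 FPKM in A75, A91, A94 and A115. Only A91 lay within the LD range, and the log2 difference was 1.84. The LD mean was under the minimum for testing, so that the gene was tested only because it was high in ADV, and its unadjusted p under 0.05 is no support for a difference. Without A94 it fell below that minimum.

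Mmp7, or matrilysin, which is made by ductal and injured epithelium, was highest in another mouse, A75. Its FPKM was 0.404, 0.382, 0.860 and 1.08 in L63, L65, L86 and L104, and 13.1, 0.814, 2.84 and 1.24 in A75, A91, A94 and A115. A75 stood far above the other 7 livers and the groups overlapped through A91. The log2 difference of 1.86 (limma adjusted p = 0.390, exact permutation p = 0.086) became 1.08 without A75 (limma unadjusted p = 0.0475, adjusted p = 0.456). Without A91 it was 2.36. The summed FPKM of 5 biliary markers was 53.5, 26.7, 247 and 30.4 in A75, A91, A94 and A115, against 20.0 to 27.8 in the LD livers. In A94 nearly all of it was Spp1 (242 FPKM), which macrophages also make. Of the other markers in A94, Epcam (1.55 FPKM), Sox9 (1.27) and Krt7 (0.711) were also above every LD liver, and Krt19 (0.815) was within the LD range. Their part in the Mmp7 values was not tested.

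Mmp2, gelatinase A, measured 0.574, 0.451, 0.516 and 0.5002 FPKM in L63, L65, L86 and L104 and 1.03, 0.629, 5.17 and 0.916 FPKM in A75, A91, A94 and A115. The groups did not overlap, but A94 was far above the next ADV liver. The log2 difference was 1.25 (limma adjusted p = 0.411, exact permutation p = 0.029) and 0.63 without A94. The summed FPKM of 11 stellate cell and fibroblast markers was also higher in every ADV liver, with 230, 172, 456 and 206 in A75, A91, A94 and A115 against 126 to 144 in the LD livers. Of these markers, 4 of 11 were higher at an unadjusted p under 0.05, where 8.65% of all genes were. They include Acta2 and Lum, which the paper reported as upregulated in ADV livers, so that nothing is read from this count. The part of these markers in the Mmp2 and Timp1 values was not tested.

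**Figure D3:**
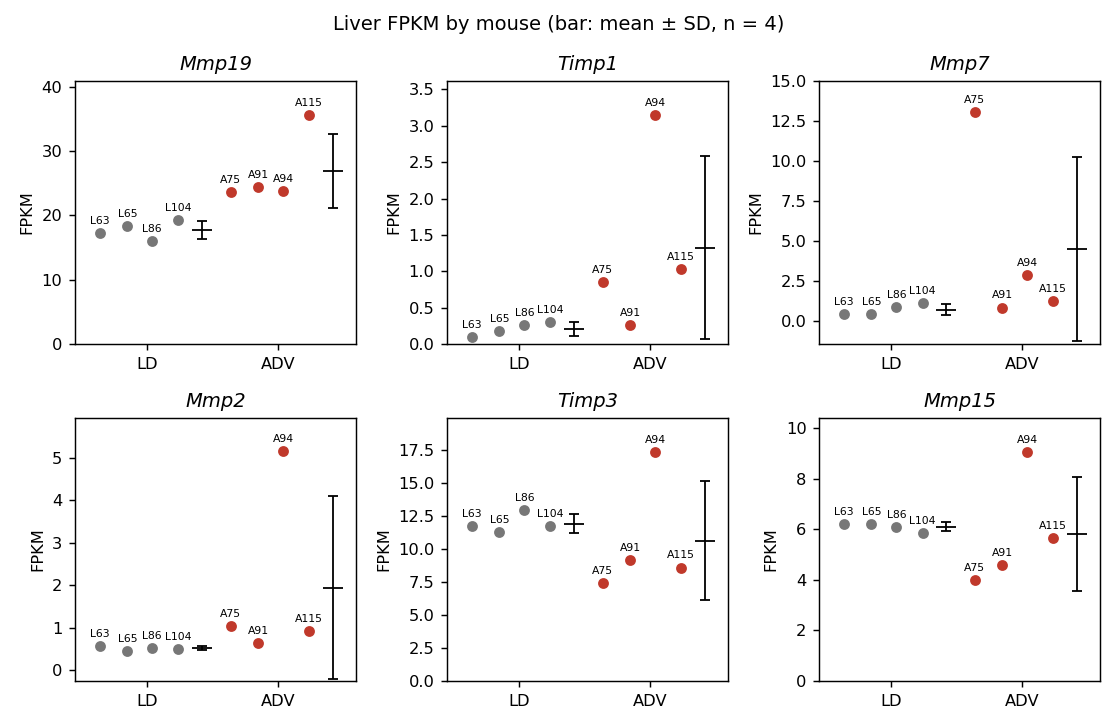
Liver FPKM of 6 members in each of the 8 mice (points, labelled by mouse) with mean ± SD (bars, n = 4). Mmp19 is higher in all ADV livers, Mmp7 is highest in A75, and A94 is highest for Timp1, Mmp2, Timp3 and Mmp15, for the last 2 of which the other ADV livers lie below all LD livers.

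The inhibitor Timp3 showed the opposite pattern in 3 of the 4 ADV livers. It measured 11.7, 11.3, 13.0 and 11.7 FPKM in L63, L65, L86 and L104, and 7.41, 9.21, 17.4 and 8.61 FPKM in A75, A91, A94 and A115. A75, A91 and A115 were below every LD liver, and A94 was above every LD liver. With all mice the log2 difference was -0.24 (limma adjusted p = 0.644) and -0.50 without A94 (SE 0.11, limma unadjusted p = 0.000916, adjusted p = 0.140). Mmp15, which was not called between the conditions, had the same arrangement, with 5.85 to 6.22 FPKM in the LD livers, 4.00, 4.58 and 5.67 in A75, A91 and A115 and 9.05 in A94. Its log2 difference was -0.13 with all mice (limma unadjusted p = 0.559, adjusted p = 0.805). It was -0.37 without A94 (limma unadjusted p = 0.0172, adjusted p = 0.251) and 0.02 without A75. As a share of the summed FPKM of the 46 genes, Timp3 was lower in all 4 ADV livers, with 10.1%, 16.5%, 14.8% and 10.8% in A75, A91, A94 and A115 against 20.1% to 22.5% in the LD livers. In A94 the lower share stood beside a higher level of Timp3 itself and the largest sum of the 46 genes, 117 FPKM.

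Timp2 was even among the LD livers, with 3.19, 3.49, 3.70 and 3.77 FPKM in L63, L65, L86 and L104, and measured 4.19, 3.28, 14.0 and 4.36 FPKM in A75, A91, A94 and A115. Its partner Mmp14 measured 7.21, 8.11, 9.77 and 8.26 FPKM in the LD livers and 10.7, 6.25, 16.7 and 14.0 FPKM in the ADV livers, in the same order of mice. A94 was highest for both, and A91 was within or below the LD range for both. The log2 differences were 0.60 and 0.43 (limma adjusted p = 0.520 and 0.508). They were 0.14 and 0.24 without A94, and 0.83 and 0.71 without A91. Timp4, an inhibitor of restricted tissue distribution, was listed at 0 in all LD livers and in A91 and A115, at 0.0303 FPKM in A75 and at 0.0312 in A94, and was not tested.

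A94 was the highest of the 8 livers in 22 of the 25 members, or 88.0%, where it was highest in 49.7% of all genes tested. The 22 include the 5 members that reached the minimum in ADV only, Mmp8 among them, which were tested because of such high values, so that nothing is read from the count. The exceptions were Mmp19, Mmp7 and Adamts7. Examples are 1.80 FPKM of Mmp12 (macrophage elastase) against at most 0.358 in the LD livers, 0.774 FPKM of Mmp8 (neutrophil collagenase) against at most 0.184, and 2.91 FPKM of Adamts2 (procollagen N-proteinase) against at most 0.632. The summed FPKM of 13 macrophage and monocyte markers was 444 in this liver against 114 to 183 in the LD livers, and that of 11 neutrophil markers 120 against 7.66 to 13.7. Their part in these values was not tested. Without A94, 20 members were tested, their median log2 difference was 0.19 (0.02 over all genes), 14 of 20 were above 0 (70%, where 54.1% of all genes were), and 3 were higher (Mmp19, Mmp2 and Mmp7; 15.0%, where 8.80% of all genes were) and 2 lower (Timp3 and Mmp15; 10%, where 5.66% were) at an unadjusted p under 0.05.

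In the kidney, 0 of the 29 members passed an adjusted p under 0.05 by limma, as did 0.0% of 14452 genes. At an unadjusted p under 0.05, 1 member was higher in ADV, Adamts4 (3.45%, where 1.75% of all genes were), and 0 were lower (1.35%). Adamts4 reached the minimum for testing in ADV only, as did Adamts12 and Mmp25, so that these 3 of the 29 had to be higher there, and nothing is read from the counts over members. Among the 29 tested members, Adamts4 was also the only one whose groups did not overlap, where 0.962% of all genes did so in this direction and 1.83% in the other. The log2 difference was above 0 in 24 of the 29 members, or 82.8%, where 46.4% of all genes were. Without A94 it was above 0 in 19 of 28 (67.9%, where 35.7% of all genes were). The median was 0.38 over the members and -0.02 over all genes. It was 0.19 without A94 (all genes -0.10), 0.23 without A75 (all genes -0.09) and 0.63 without A115 (all genes 0.20), and 0.47 without A115 and with scaling by the median ratio (all genes 0.01).

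Timp3 in the kidney measured 553, 595, 479 and 519 FPKM in L63, L65, L86 and L104, and 378, 446, 375 and 503 FPKM in A75, A91, A94 and A115. A75, A91 and A94 were below every LD kidney and A115 was within the LD range. The log2 difference was -0.34 (95% CI -0.72 to 0.04, limma unadjusted p = 0.0713, adjusted p = 0.9999, exact permutation p = 0.057). Without A115, the kidney with the high mitochondrial share, it was -0.43 with an adjusted p of 0.0425 by limma, and without A115 and with scaling by the median ratio it was -0.62 with an adjusted p of 0.0356. These were the only 2 of 20 alternatives in which Timp3 was called. Over all 20 the difference ran from -0.62 to -0.23, with an unadjusted limma p of up to 0.445. It was -0.28 without A94. Without A115, 18.8% of all genes passed, against 0.0% with it. The summed FPKM of 5 proximal tubule markers was 18337, 30136, 21265 and 46239 in A75, A91, A94 and A115 and between 27308 and 40340 in the LD kidneys. A91, with lower Timp3, was within that range and A115 above it, and their part in the Timp3 values was not tested.

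Timp1 in the kidney varied widely between mice, with 0.351, 0.995, 3.77 and 1.31 FPKM in L63, L65, L86 and L104 and 20.4, 0.513, 5.42 and 8.89 FPKM in A75, A91, A94 and A115. A75, A94 and A115 were above every LD kidney, and A91 was within the LD range. This gave a log2 difference of 1.96 (SE 1.09, limma adjusted p = 0.9999, exact permutation p = 0.171), which was 2.97 without A91 and 1.28 without A75. Havcr1 and Lcn2, genes known as markers of tubular injury, summed to 301 FPKM in A75, 264 in A115 and 166 in L86, the LD kidney of highest Timp1, against 15.1 to 30.3 in the other 5 kidneys. A94 had a low sum of these (24.9) but the highest macrophage sum, 401 FPKM against 53.9 to 163 in the LD kidneys. The part of either in the Timp1 values was not tested.

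Adamts4, which cleaves aggrecan and versican, was near the limit of detection in the LD kidneys, with 0.0422, 0, 0.111 and 0.0451 FPKM in L63, L65, L86 and L104. It measured 2.45, 0.170, 0.166 and 0.185 FPKM in A75, A91, A94 and A115. All ADV kidneys were above all LD kidneys, but only A75 was clearly so. This gave a log2 difference of 1.73. The gene was tested only because it was high in ADV, so that its unadjusted p under 0.05 is no support for a difference, and without A75 it fell below the minimum.

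Its relative Adamts1 was the third most abundant member of the kidney, with 7.03, 9.11, 16.8 and 9.37 FPKM in L63, L65, L86 and L104 and 21.5, 7.48, 10.1 and 17.6 FPKM in A75, A91, A94 and A115. The 3 highest kidneys, A75, A115 and L86, were those of the highest Havcr1 and Lcn2 sum, and the part of tubular injury in the Adamts1 values was not tested. The groups overlapped (log2 difference 0.37, limma adjusted p = 0.9999). When each mouse was left out, the difference ran from 0.13 without A75 to 0.63 without A91. Timp2 measured 15.6, 17.4, 20.8 and 16.2 FPKM in the LD kidneys and 21.8, 17.4, 32.5 and 13.6 FPKM in the ADV kidneys, in the same order of mice. Its log2 difference of 0.22 was -0.01 without A94. Timp4 was at 0.0731, 0.0828, 0.0413 and 0.234 FPKM in the LD kidneys and at 0.315, 0.340, 0.162 and 0 in the ADV kidneys, and was not tested.

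**Figure D4:**
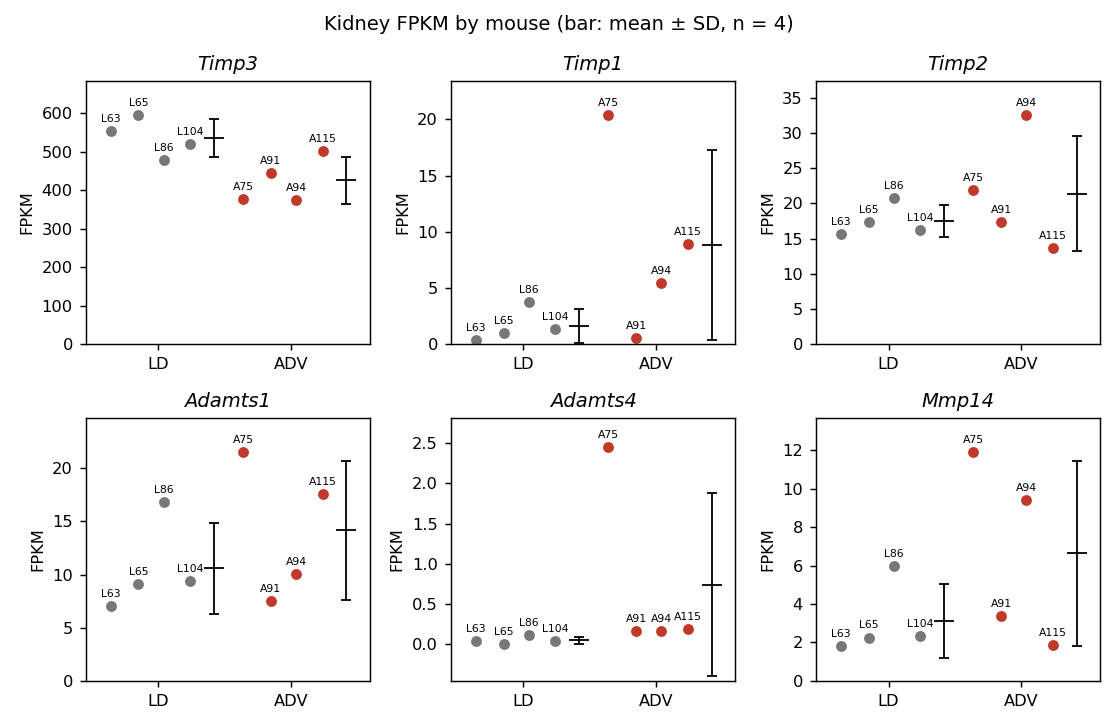
Kidney FPKM of 6 members in each of the 8 mice (points, labelled by mouse) with mean ± SD (bars, n = 4). Timp3 is lower in A75, A91 and A94 than in all LD kidneys, and A75 is highest for Timp1, Adamts1, Adamts4 and Mmp14.

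The membrane-type enzyme Mmp14 measured 1.84, 2.26, 6.00 and 2.34 FPKM in L63, L65, L86 and L104 and 11.9, 3.36, 9.43 and 1.85 FPKM in A75, A91, A94 and A115. Mmp2, Mmp7 and Mmp19, which had been higher in ADV livers at an unadjusted p under 0.05, had log2 differences of 0.47, 1.04 and 0.66 in the kidney (limma adjusted p = 0.9999 for each). With each mouse left out, that of Mmp2 ran from 0.18 without A94 to 0.77 without L86, that of Mmp7 from 0.59 without A94 to 1.63 without A91, and that of Mmp19 from 0.37 without A75 to 0.95 without L86. For these 4 genes the LD kidney L86 was the highest of its group, and A75 or A94 was the highest of all. Mmp3 (stromelysin 1) was at 6.08 FPKM in A94 and 1.52 in A75 against 0.310 to 0.520 in the LD kidneys, and at 1.105 and 0.501 FPKM in the livers of the same 2 mice, where every LD liver was at 0.127 or below. A91 and A115 were within the LD range, at 0.331 and 0.408 FPKM in the kidney and 0.0241 and 0.0963 in the liver. The log2 difference of Mmp3 in the kidney was 1.29, and 0.50 without A94. A94 was the highest of the 8 kidneys in 13 of 29 members (44.8%, where 26.2% of all genes were) and A75 in 10 (34.5%, where 28.1% were). Mmp25 among the former and Adamts4 among the latter reached the minimum in ADV only, and nothing is read from these counts. The kidney of A94 also stood above the LD kidneys in immune cell markers, with summed FPKM of 540 against at most 47.6 for B and plasma cells, 36.3 against at most 6.89 for T and NK cells and 27.6 against at most 3.95 for neutrophils. The part of these cells in the values of the members was not tested. Without A115, 9 members were higher at an unadjusted p under 0.05 (30.0%, where 29.5% of all genes were), and Mmp23 was called besides Timp3 (log2 difference 1.23, limma adjusted p = 0.0427). The difference of Mmp23 was 0.14 without A94, and it was not called without A115 once the libraries were scaled by the median ratio.

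**Figure D5:**
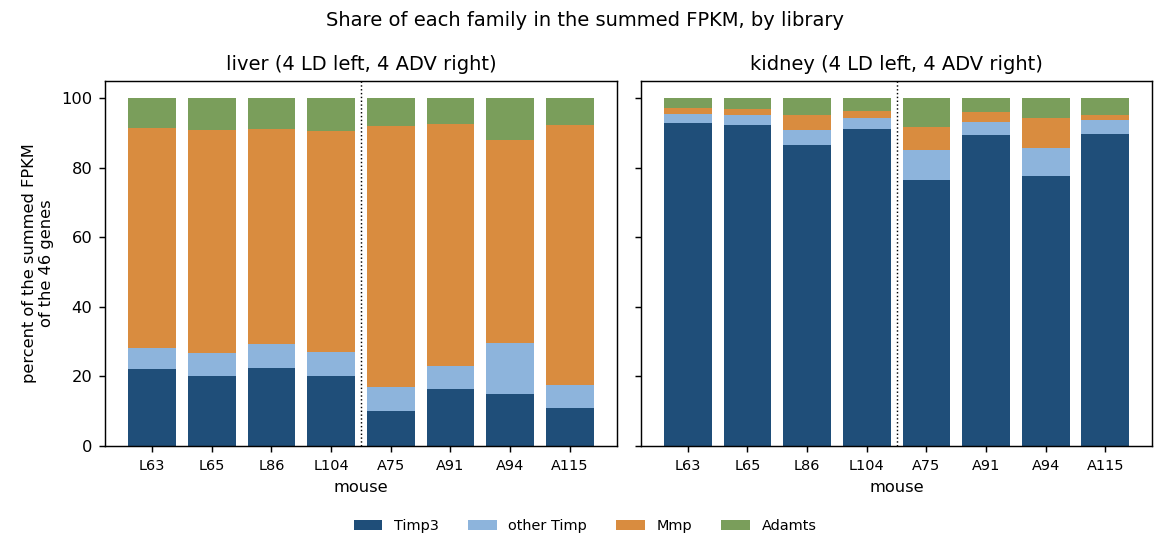
Percent of the summed FPKM of the 46 genes held by Timp3, the other Timp genes, the Mmp genes and the Adamts genes in each library (LD mice left and ADV mice right of the dotted line). Timp3 takes 10.1% to 16.5% in the ADV livers and 20.1% to 22.5% in the LD livers, and 76.4% to 89.7% in the ADV kidneys and 86.5% to 92.8% in the LD kidneys.

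The summed FPKM of the 46 genes was 73.6, 55.7, 117 and 79.3 in the livers of A75, A91, A94 and A115, against 53.3 to 58.4 in the LD livers. In the kidneys it was 495, 498, 482 and 561, against 554 to 645 in the LD kidneys. The kidney sum followed Timp3, whose share was 76.4%, 89.6%, 77.8% and 89.7% in A75, A91, A94 and A115. The MMPs held 6.87%, 2.91%, 8.78% and 1.45% in these kidneys and 1.68% to 4.17% in the LD kidneys. A91, the ADV mouse whose values were nearest to LD for Timp1 and Timp2, was so in both organs.

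Whether the difference between ADV and LD itself differed between the organs was tested as an interaction over all 16 libraries. No member passed an adjusted p under 0.05 by limma (0.0% of 14968 genes) and 0 of 32 had an unadjusted p under 0.05 (3.71% of all genes). For Timp3 the difference between the organs was -0.10 on the log2 scale (95% CI -0.73 to 0.53), for Timp1 0.13 (95% CI -2.67 to 2.92) and for Mmp19 0.08 (95% CI -0.97 to 1.13). Differences of the size seen within an organ lie inside all 3 intervals, so that such a difference between the organs was not detectable here.

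Other genes of the pathway were taken from 5 lists, and in none of them did a gene pass an adjusted p under 0.05 by limma between ADV and LD. The paper reported Col1a1, Col1a2 and Col3a1 of the substrate list as upregulated in these ADV livers, and marked significance by a count test (DESeq2). That test was not run here. Among 15 substrates, 5 of the 10 tested in the liver were higher in ADV at an unadjusted p under 0.05 and 0 lower, with a median log2 difference of 0.99 (8.65% of all genes were higher). In the kidney 4 of 11 were higher and 0 lower, with a median of 0.68 (1.75% of all genes were higher). The lists were chosen with earlier results known, and the substrates include those collagen chains, so that nothing is read from the counts over the lists. Which list genes reached the minimum in ADV only was not examined. The smallest p belonged to Eln (elastin, log2 difference 1.37) and Col1a1 (a chain of type I collagen, 2.19) in the liver, and to Col1a2 (1.26) and Col3a1 (type III collagen, 2.14) in the kidney. Col3a1 measured 30.3, 4.19, 29.1 and 33.3 FPKM in the kidneys of A75, A91, A94 and A115 against 2.67 to 9.92 in the LD kidneys, so that A91 again lay within the LD range, as it did for Timp1. The summed FPKM of the stellate cell and fibroblast markers was 149, 71.5, 152 and 96.2 in the same ADV kidneys, against 56.8 to 84.9 in the LD kidneys. The part of these markers in the substrate values was not tested. Col1a1 in the liver was 0.705, 0.335, 11.4 and 2.07 FPKM in the same mice against 0.226 to 0.323, with A94 highest.

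Among the plasmin system and proprotein convertases, which activate MMP precursors, 1 of 9 was higher in the liver at an unadjusted p under 0.05 (Plat, tissue plasminogen activator, log2 difference 1.06), where 8.65% of all genes were, and 1 of 8 was lower in the kidney (Klkb1, plasma kallikrein, -0.90), where 1.35% were. Among other inhibitors and clearance receptors, 0 of 8 had an unadjusted p under 0.05 in the liver, and 1 of 9 was lower in the kidney (Pzp, an alpha-2-macroglobulin relative, -0.60), where 1.35% of all genes were. Of the other matrix proteases, 2 of 7 were higher in the liver at this threshold, the lysosomal cathepsins Ctsb (0.36) and Ctss (0.98), and 0 of 10 in the kidney, where 8.65% and 1.75% of all genes were. Of the ADAM and ADAMTS-like genes, 0 of 11 in the liver and 0 of 13 in the kidney had an unadjusted p under 0.05.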

How the data were processed

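Liver and kidney of 4 LD and 4 ADV mice were compared. The authors used Trimmomatic for trimming, STAR 2.5.4b for alignment to mm10 and SAMtools to drop mapping qualities under 10, and then HOMER on the exons of UCSC known canonical genes. They deposited FPKM in columns headed RPKM. Each library was scaled by its own total. Values times exon length and total came out in steps of 0.5 fragment (within 0.02 of a step), so that 1 fragment in a gene with 1 kb of exon was worth 0.0380 to 0.0584 FPKM.

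Members and lists were chosen with earlier results of these data known. Genes with a mean FPKM times exon length in kb above 0.5 were tested on log2(FPKM + 0.1) with limma 3.58.1 in R 4.3.3 (trend in eBayes, Benjamini-Hochberg, threshold 0.05), a procedure tested on simulated data. Fold changes are on that scale, which understates those of low genes. Exact permutation tests were two-sided over 70 assignments. P-values measure the spread between the sampled mice. The main test was not a count test, since the deposited values are FPKM. Limma-voom ran on the recovered fragments as an alternative, and the count test of the study was not run. The mouse number in the titles pairs the organs. In each mouse, the deviations of both organs from the group means had correlations across genes of 0.147, 0.117, 0.185 and 0.0982 in L63, L65, L86 and L104 and of -0.0242, 0.334, 0.553 and 0.0423 in A75, A91, A94 and A115.

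Values in every mouse are given for the Timp genes, the 3 most abundant members of each organ and members with an adjusted, or unadjusted, p under 0.05 between conditions, and between organs the 6 called members of largest difference in each direction are named. Mmp15, Mmp3, Mmp14 in the kidney, Mmp23, Mmp12, Mmp8, Adamts2 and the chromosome 9 cluster were added after their values had been seen. Of each related list, at most 2 genes per organ are named. Gene overlaps were taken from GENCODE vM21 (GRCm38), in which all 46 were found, and promoters from RefSeq (GRCm38.p6), in which 32 of 46 were found. Each mouse was left out in turn. Other alternatives were a pseudocount of 0.5 or 1, another filter on low values (none, or a mean of 1 FPKM), another scaling (median ratio, quantiles, or without mitochondrial genes), and a joint fit of the organs, also with a replicate block for the mouse.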

Additional observations from a re-analysis of the deposited data

Results flagged for a closer look

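The members were searched for a mouse that stood apart from the other 3 of its group by Dixon's ratio at its 95% critical value. Of 108 groups of 4 values, 20 did so, 13 in the liver and 7 in the kidney, where chance alone gives about 1 in 20 groups. Of these 20, Mmp8, Mmp17, Adamts12 and Adamts14 in the liver and Adamts4 in the kidney reached the minimum for testing in ADV only, the group of the mouse that stood apart, so that the number is not read against chance. In 11 of the 13 liver cases the mouse was A94, and its FPKM was 14.0 for Timp2, 5.17 for Mmp2, 3.10 for Mmp23, 2.91 for Adamts2, 1.82 for Adamts5, 1.43 for Adamts15, 1.11 for Mmp27, 0.774 for Mmp8, 0.563 for Adamts12, 0.532 for Mmp17 and 0.362 for Adamts14. All 11 were high values. The other 2 livers were A115 for Mmp19 (35.6 FPKM) and A75 for Mmp7 (13.1 FPKM).

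In the kidney, L86 stood above the other LD mice for Mmp14 (6.00 FPKM), Mmp23 (3.49) and Mmp7 (2.85), and L63 stood below them for Adamts10 (1.17) and Mmp15 (0.227). Among the ADV kidneys, A75 stood apart for Adamts4 (2.45 FPKM) and A94 for Mmp12 (3.08 FPKM).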

How the results depend on the processing

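Of the recomputed values of named members, 673 kept their direction and their side of the threshold. The number of members called between ADV and LD in the kidney was 0 with all mice and between 0 and 2 when each mouse was left out, with 2 (Timp3 and Mmp23, 6.67% of members, where 18.8% of all genes passed) without A115, and 1 (Timp3, 3.33%, where 16% passed) without A115 and with scaling by the median ratio. For Timp3 in the kidney the log2 difference was then -0.43 and -0.62. Over its 20 alternatives it ran from -0.62 to -0.23, and it was called in these 2 only. Timp2 in the kidney lay between -0.0068 without A94 and 0.41 without A115 (0.22 with all mice). Mmp14 lost its call between organs under LD without L63, L65 or L104. Fewer samples were fitted in these cases, and the cause was not tested further. No member was called between ADV and LD in the liver under any alternative run, limma-voom included, or in the difference between organs under those run for it, which did not include limma-voom or a minimum mean of 1 FPKM. The number of members called between organs was 20 under LD and 19 under ADV, and 24 and 26 with the mouse as replicate block (56.3% of all genes higher and 11.4% lower under LD, 52.7% and 11.5% under ADV). The block changed no call between ADV and LD. Of the 25 liver members, 4 had an unadjusted p under 0.05, and 2 did with a pseudocount of 1, with quantile normalization or by limma-voom. The kidney median of 0.38 was 0.25 and 0.17 with a pseudocount of 0.5 or 1. Low levels limit Timp4, Adamts4 and Mmp3, which are near the value of single fragments in some libraries.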
